A study of Mus musculus with 31 samples.

Results

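The colon of control mice was compared between 14 and 7 days of the AOM/DSS model (CRC). The comparison used the 8 arrays whose labels name the CRC group without E171 at these days, 4 arrays per day, of 31 arrays in all. Each array was labelled as RNA from the distal colon of 1 BALB/c mouse. At each day 2 mice were labelled male and 2 female. All mice were 4 to 6 weeks old at the start and had received a single injection of azoxymethane (AOM), a carcinogen that alkylates DNA, before the first day. Dextran sulphate sodium (DSS), a polymer that damages the colonic epithelium, was given in the drinking water until day 5, so both groups were sampled after it had been stopped. Both groups also received the vehicle, water, by gavage. The CRC + E171 mice, used here only for comparison, received 5 mg/kg bw/day of the food additive E171 (titanium dioxide) in place of the vehicle. A colon that was given neither AOM nor DSS is not among the groups, so each value compares 2 stages after the same injury.

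In this model DSS strips the surface epithelium, neutrophils and monocytes enter the tissue, and cytokines and matrix metallopeptidases are released. After DSS is withdrawn the crypts regrow, absorptive colonocytes and goblet cells are replaced from stem cells, and inflammation subsides. Repeated or lasting injury together with AOM gives rise to tumours in the distal colon. A bulk array reads all cells of the tissue at once, so fewer cells of a type and less RNA per cell cannot be told apart.

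Values are log2 of the scanner's processed signal minus log2 of the array's 75th percentile, so that 0 marks a probe at that percentile, and are given in the order male 1, male 2, female 1 and female 2 unless stated otherwise. The 75th percentile of the 8 arrays ranged from 2672 to 6536, and the share of spots well above background was 67.4 to 76.1%. Of the genes on the array, 19845 were tested. The precision is limited by the number of arrays.

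The arrays labelled male at 7 days stood apart from the others, and the counts, gene lists and named genes of the comparison between the days were therefore also computed without them. The score of an array in a gene list is the median over the list of the gene values after centring on the mean of all 31 arrays. The neutrophil score was 4.52 and 5.14 in the males at 7 days and -0.58 and -0.31 in the females. At 14 days it was 0.93, -0.77, 0.29 and 0.08, and in the other groups of the series no array passed 2.90. The pan-epithelial score was -3.45 and -1.60 in the males at 7 days and 0.22 and 0.28 in the females, against -0.12 to 0.12 at 14 days. The females at 7 days and all 4 arrays at 14 days thus lay close together in both scores.

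Genes of other tissues were also high on single arrays at 7 days. The skeletal muscle score was 6.54 in male 1 and 1.78 in female 2, against -0.32 to -0.11 at 14 days. The squamous epithelium score was 6.12 in male 1. The pancreatic acinar score was 7.91 in male 2 and 5.93 in female 1, against -1.68 to -0.62 at 14 days. Scores of this size for acinar genes were also found among the arrays of CRC + E171 at 2 and 21 days (highest 9.70 and 9.66). The part of these arrays' other tissue in the differences below was not tested beyond leaving the arrays out.

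Among the CRC 14 days arrays, the one labelled male 2 did not match its label. Xist, the RNA that silences an X chromosome in female cells, was at -1.60 on it, within the range of the females, whereas the other males lay between -8.20 and -6.88. Differences in the males include this array. Without it 1 array labelled male was left at 14 days, whose spread was taken from the other groups, and values in that setting are given beside the calls that it changed. In the males 76 of the named genes passed the adjusted threshold with the array and 35 of these without it.

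**Figure D1:**
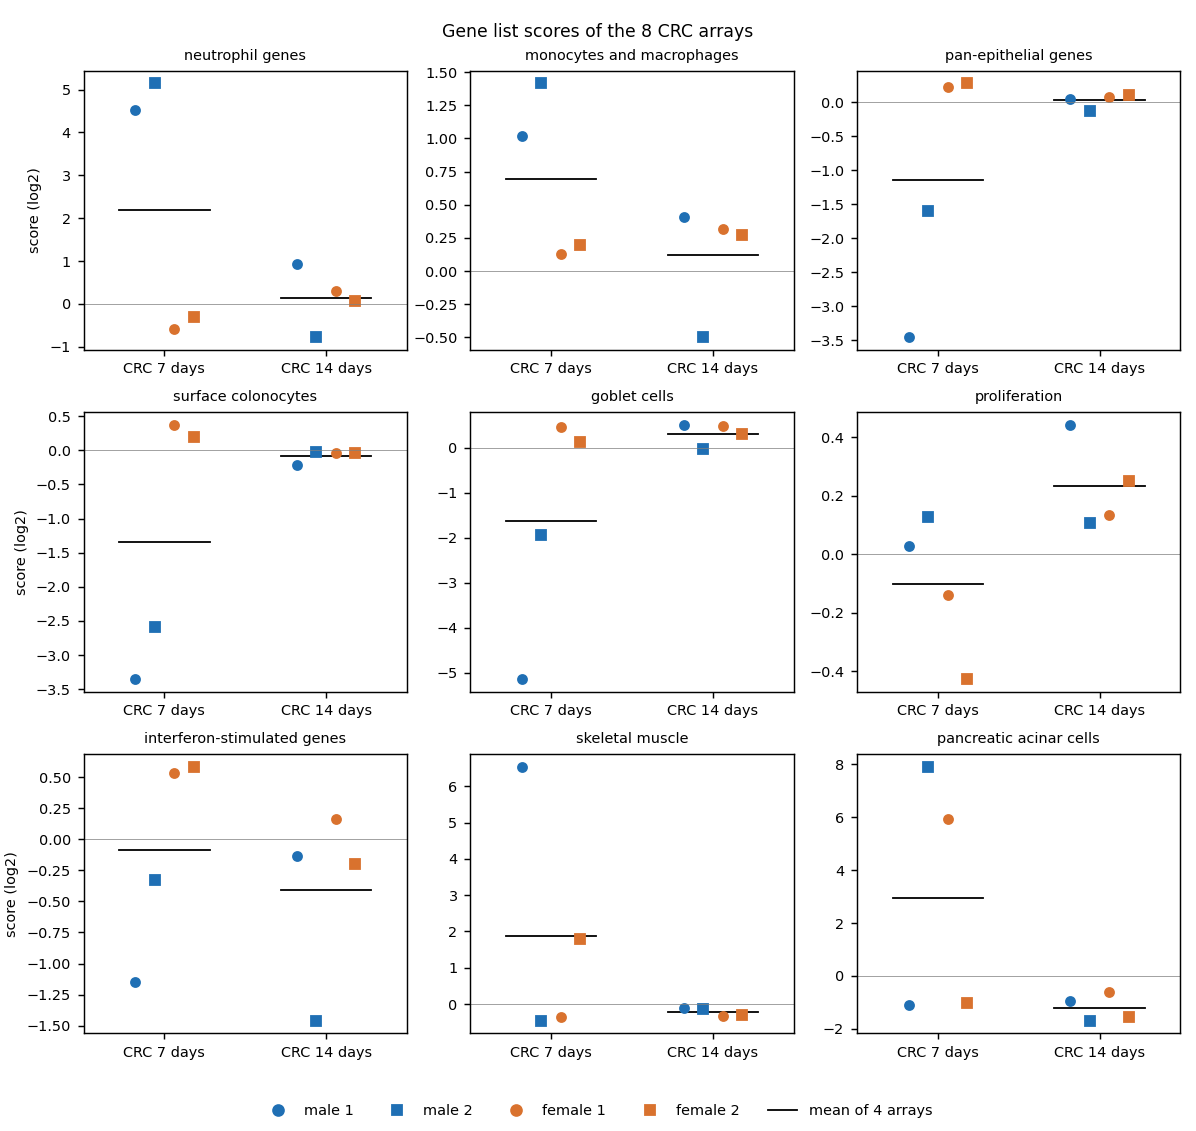
Score of each of the 8 arrays in 9 gene lists at 7 and 14 days (y axis, median of the centred log2 values over the list). Blue points are arrays labelled male and orange points arrays labelled female, with circles for replicate 1, squares for replicate 2 and a line at the mean of 4 arrays. The males at 7 days reach 5.14 in the neutrophil list and -5.14 in the goblet cell list, while the females at 7 days lie near the 14-day arrays in both.

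No gene differed between 14 and 7 days after Benjamini-Hochberg adjustment (0 of 19845, lowest adjusted p = 0.207 in limma). An unadjusted p under 0.05 was reached by 1947 genes (9.81%). With a fold change of at least 1.5 and an unadjusted p under 0.05, the thresholds that define a DEG here, 1469 genes were counted (7.40% of the genes tested). Of these DEG, 842 were up-regulated at 14 days (4.24%) and 627 down-regulated (3.16%). The values of the 4 arrays at each day did not overlap for 790 genes (3.98%), of which 264 were also DEG. The median absolute log2 fold change over all genes was 0.26, less than the median standard error of 0.31.

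The count of DEG depended on the males at 7 days. Without both of them 611 DEG were left (3.08%), 192 up-regulated (0.967%) and 419 down-regulated (2.11%), and again 0 genes passed the adjusted threshold (774 at an unadjusted p under 0.05). Without male 1 of 7 days alone there were 400 DEG, and without female 1 or female 2 of 7 days 3019 and 2697. In the males alone (2 against 2, limma over groups split by labelled sex) 2271 genes passed the adjusted threshold (11.4%), with 1433 up-regulated (7.22%) and 838 down-regulated (4.22%), and 545 (2.75%) once the 14-day array labelled male 2 was dropped. In the females 0 genes passed it, 398 (2.01%) reached an unadjusted p under 0.05 and 366 were DEG (1.84%). The change differed between males and females for 836 genes (4.21%, adjusted p, limma), and for 41 genes (0.207%) once the 14-day array labelled male 2 was dropped. At 7 days 3069 genes differed between the arrays labelled male and female (15.5%), and at 14 days 0 did, with 150 at an unadjusted p under 0.05. The 14-day counts include the array labelled male 2, whose Xist was at the female level. They therefore cannot tell whether the sexes differed at 14 days. The array weights that limma estimated were 0.125 and 0.184 for the males at 7 days and between 0.779 and 5.53 for the other 6 arrays.

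The epithelial genes were the group with the highest share of DEG. Of 19 pan-epithelial genes tested 16 were up-regulated at 14 days and 0 down-regulated, where 4.24% of all genes were up-regulated, and the list's median log2 fold change was 1.15 (all genes -0.01). All 19 had a higher mean at 14 days. The median was 2.42 in the males and -0.13 in the females, and without the males at 7 days it was -0.16 with 0 DEG. Without male 1 or male 2 of 7 days alone 0 and 9 DEG were left. With scan day as a block 9 of the 19 were up-regulated and 0 down-regulated. In the males 16 of the 19 passed the adjusted threshold, all of them up-regulated, where 7.22% of all genes did so. For 11 of the 19 the change differed between males and females (adjusted p), where 2.92% of all genes had such a difference in this direction. With the 14-day array labelled male 2 dropped these counts were 14 and 1.

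Hnf4a encodes a nuclear receptor that maintains the identity of intestinal epithelial cells. It was at -4.37, -0.57, 2.47 and 2.21 at 7 days and at 2.15, 2.43, 2.00 and 2.25 at 14 days. Both males at 7 days lay below every other array, and the females at 7 days lay close to the 14-day arrays. The log2 fold change was 2.27 (SE 0.81, adjusted p = 0.487), with 4.76 in the males (adjusted p = 6.6e-04, and 0.016 with the array labelled male 2 of 14 days dropped) and -0.22 in the females. Vil1, coding for the microvillus protein villin, followed the same order with -0.88, 2.86, 5.20 and 4.93 at 7 days and 4.91 to 5.03 at 14 days. Cdx2, a transcription factor of the intestinal lineage, differed in that male 2 at 7 days (0.16) lay above female 2 (-0.03).

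Surface colonocytes absorb water and electrolytes. Of 39 genes of these cells 17 were up-regulated and 0 down-regulated, and the median log2 fold change was 1.32 (males 2.69, females -0.19, without the males at 7 days -0.24 with 0 DEG). Without male 1 or male 2 of 7 days alone 1 and 6 DEG were left. Aqp8, a water channel of surface colonocytes, was at -3.69, -3.50, 6.40 and 6.30 at 7 days and at 5.32, 5.87, 5.39 and 4.94 at 14 days. The males at 7 days were below, and the females at 7 days above, all arrays of 14 days. The fold change of the group means was 16 (log2 4.00, SE 1.67, adjusted p = 0.489). In the males the log2 difference was 9.19 and in the females -1.18. These differed by 10.37 between the labelled sexes (adjusted p = 0.013 in limma), and by 10.1 with the 14-day array labelled male 2 dropped, which missed the threshold (adjusted p = 0.076). Slc26a3, the chloride and bicarbonate exchanger of the colon, was at -7.59, -4.49, 1.75 and 1.79 at 7 days and between 0.54 and 2.61 at 14 days. Car1, a carbonic anhydrase, was at -3.78, -1.01, 4.08 and 3.65 at 7 days and between 3.20 and 5.72 at 14 days, with the females of 7 days inside that range. Car4, a membrane-bound carbonic anhydrase, was not a DEG (log2 fold change 1.91, SE 1.24, adjusted p = 0.588), although its males at 7 days were also the lowest arrays (-2.95 and -0.73).

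Enzymes that modify xenobiotics and steroids, which the colonic epithelium expresses, were up-regulated in part. Of 49 cytochrome P450 and conjugation genes 12 were up-regulated and 0 down-regulated (median 0.61, males 1.66, females -0.57, without the males at 7 days -0.41 with 45 of 49 lower at 14 days). Single arrays moved this count from 1 (without male 1 of 7 days) to 23 (without female 2 of 7 days). Sult1d1, a sulfotransferase, was at -7.59, -4.47, 1.78 and 1.79 at 7 days and between 1.29 and 2.22 at 14 days, which is 3.77 on the log2 scale (SE 1.40, adjusted p = 0.487). Cyp2c55 was at -5.73, -5.07, 2.73 and 2.04 at 7 days and between 1.75 and 2.48 at 14 days. Cyp2c68 was at -6.96 and -5.25 in the males and at 1.76 and 1.30 in the females of 7 days, against 0.32 to 1.79 at 14 days. Sult1d1 and Cyp2c68 were each well above background on 3 of 4 arrays at 7 days, so the size of their differences is uncertain.

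Promoter windows are shown for 1 colonocyte gene and 1 enzyme gene of these lists, since their members were high or low on the same arrays. The windows are from RefSeq (GRCm38.p6), 250 bases before to 50 after a start site, and the genes were chosen after their values were seen. In Slc26a3 this site lies inside the gene, downstream of its first annotated base. Slc26a3 lies at chr12:31437969-31438268 on the plus strand and Sult1d1 at chr5:87568957-87569256 on the minus strand. Capitals mark the match to GTTAAT followed by any base and ATT, the letters bound by hepatocyte nuclear factor 1, a regulator of epithelial genes, which were searched on both strands.
Slc26a3: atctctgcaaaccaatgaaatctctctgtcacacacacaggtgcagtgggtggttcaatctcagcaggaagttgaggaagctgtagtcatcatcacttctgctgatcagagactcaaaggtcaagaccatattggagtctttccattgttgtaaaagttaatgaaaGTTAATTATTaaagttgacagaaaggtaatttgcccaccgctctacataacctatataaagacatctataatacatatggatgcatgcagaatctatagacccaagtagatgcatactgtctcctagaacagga
Sult1d1: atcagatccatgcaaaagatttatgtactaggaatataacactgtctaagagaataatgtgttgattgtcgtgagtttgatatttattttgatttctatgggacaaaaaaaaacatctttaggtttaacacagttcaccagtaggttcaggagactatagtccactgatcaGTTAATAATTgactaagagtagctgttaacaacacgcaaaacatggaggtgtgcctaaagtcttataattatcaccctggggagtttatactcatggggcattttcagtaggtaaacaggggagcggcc
The match began at position -84 from that site in Slc26a3 and at -79 in Sult1d1, both on the strand of the gene. Of the windows of all promoters 0.399% of 32851 held this motif. Lists and DEG were counted by gene, once if any window of the gene matched, which is an unlike measure to the share of all windows. The motif was found in 2 of 30 surface colonocyte genes with a window, in 2 of 41 of the enzyme genes, in 1 of 14 of the goblet cell genes and in 0 of 14 of the pan-epithelial genes. Neutrophil genes had 0 of 26. The match was present in 12 of 623 of the up-regulated DEG (1.93%) and in 3 of 467 of the down-regulated DEG (0.642%). These are matches of letters and no measurement of binding.

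Goblet cells make the mucus layer. Of 26 of their genes 15 were up-regulated and 0 down-regulated, with a median log2 fold change of 1.89 (males 4.03, females 0.12, without the males at 7 days 0.05 with 0 DEG). Without male 1 or male 2 of 7 days alone 0 and 8 DEG were left. Clca1, a secreted mucus-modifying protein, was at -1.56, -1.15, 6.71 and 6.94 at 7 days and at 6.54, 6.46, 6.88 and 6.62 at 14 days (SD 4.72 and 0.18, n = 4 each). The spread was therefore confined to 7 days, where the males were the low arrays. The log2 fold change was 3.89 (SE 1.34, adjusted p = 0.487), with 7.85 in the males (adjusted p = 3.6e-04, and 0.00938 with the array labelled male 2 of 14 days dropped) and -0.07 in the females. Muc2, the main gel-forming mucin, was at -2.76, 0.95, 3.77 and 3.15 at 7 days and between 2.96 and 4.24 at 14 days. Fcgbp, another mucus component, was at -4.61, -1.75, 4.05 and 3.43 at 7 days and between 3.68 and 3.83 at 14 days. Atoh1, the transcription factor that commits cells to the secretory lineage, was at -8.18, -2.21, 1.91 and 1.16 at 7 days and at 1.62 ± 0.09 (SD, n = 4) at 14 days.

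Of the other epithelial lists, 3 of 27 enteroendocrine genes were up-regulated and 0 down-regulated (median 0.53, females -0.06, without the males at 7 days -0.01 with 0 DEG). Single arrays moved this count from 0 (without male 1 of 7 days) to 10 (without female 1 of 7 days). The 3 genes were Neurod1, Pax4 and Insm1, transcription factors of the endocrine lineage, with log2 fold changes of 2.07, 1.70 and 1.35. Neurod1 and Pax4 were each well above background on 3 of 4 arrays at 7 days, so the size of their changes is uncertain. Neurod1 was at -7.91, -4.21, -2.80 and -2.96 at 7 days and at -2.45, -1.93, -2.74 and -2.49 at 14 days, without overlap (exact permutation p = 0.0286, the smallest that 4 against 4 arrays can give). Of 27 crypt stem cell genes and Wnt targets 5 were up-regulated and 0 down-regulated (median 0.35), and without the males at 7 days 1 was up-regulated (median 0.00). Rnf43, which limits Wnt receptors on the cell surface, was at -4.31, -3.68, -1.85 and -1.41 at 7 days and between -1.78 and -0.69 at 14 days, a difference of 1.48 on the log2 scale (SE 0.43, adjusted p = 0.487). Lgr5, the marker of crypt base stem cells, was not a DEG (log2 fold change 0.65, SE 0.92, adjusted p = 0.815). Of 17 genes of aldosterone-regulated sodium uptake 3 were up-regulated and 1 down-regulated (median 0.42, females -0.53, without the males at 7 days 16 of 17 lower). Hsd11b2, which protects the mineralocorticoid receptor from glucocorticoids, was at -5.60, -5.13, 1.32 and 1.02 at 7 days and between -0.06 and 0.48 at 14 days. Of 16 tuft cell genes 0 were up-regulated and 2 down-regulated (median -0.04). These were Alox5 and Alox5ap, the enzyme of leukotriene synthesis and its activating protein, which leukocytes also express.

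**Figure D2:**
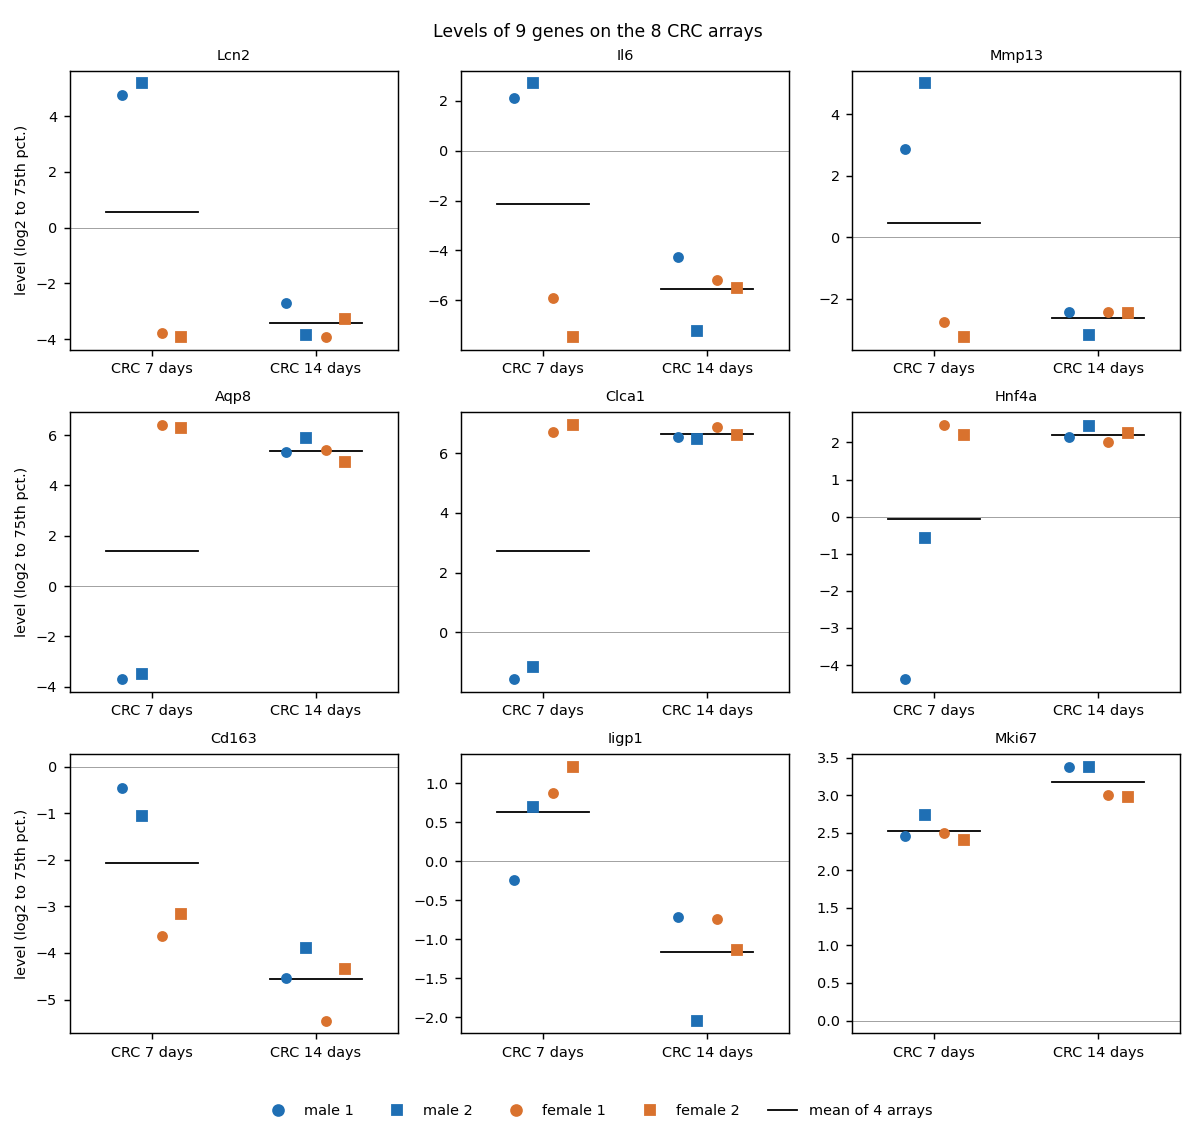
Level of 9 genes on each of the 8 arrays at 7 and 14 days (y axis, log2 signal relative to the array's 75th percentile). Symbols are as in the plot of list scores. Aqp8, Clca1 and Hnf4a are low and Lcn2, Il6 and Mmp13 high on the arrays of males at 7 days alone, whereas the arrays of Cd163, Iigp1 and Mki67 do not overlap between the days.

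The median of the neutrophil genes was lower at 14 days with all arrays, and this rested on the males at 7 days, without which 20 of 28 were higher. Of 28 tested 9 were down-regulated and 1 up-regulated, where 3.16% of all genes were down-regulated, and the median log2 fold change was -1.74. It was -4.78 in the males, where 13 of 28 passed the adjusted threshold as down-regulated (4.22% of all genes did), and 0.38 in the females, where 0 did. Without the males at 7 days the median was 0.36 with 0 DEG, and single arrays moved the count of DEG from 2 (without male 1 of 7 days) to 17 (without female 1 of 7 days). For 10 of the 28 the change differed between the sexes (adjusted p), where 1.30% of all genes had such a difference in this direction (7.79% by the unadjusted rule of a DEG). With the 14-day array labelled male 2 dropped, 5 of 28 passed in the males and 1 differed between the sexes.

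Lcn2, which binds bacterial siderophores and is made by neutrophils and inflamed epithelium, was at 4.77, 5.18, -3.78 and -3.92 at 7 days and at -2.69, -3.84, -3.93 and -3.28 at 14 days. The males at 7 days were higher than every other array of the 8 and the females of 7 days lay within the 14-day range. The log2 fold change was -4.00 (SE 1.38, adjusted p = 0.487), with -8.24 in the males (adjusted p = 4.8e-05, and 0.00241 with the array labelled male 2 of 14 days dropped) and 0.25 in the females. Mmp8, the neutrophil collagenase, was at 0.60, 2.50, -4.31 and -3.39 at 7 days and between -4.86 and -3.10 at 14 days. Chil3, a chitinase-like protein of myeloid cells, was at 0.60, 3.24, -5.41 and -5.55 at 7 days and between -5.99 and -3.84 at 14 days. Stfa1, a stefin of neutrophils, was at 6.77, 1.24, -8.56 and -2.99 at 7 days and between -8.13 and -3.92 at 14 days, with 1 of those arrays well above background.

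S100a8 and S100a9, the subunits of calprotectin, were not DEG. S100a8 was at 6.84, 5.52, -5.20 and -3.49 at 7 days and at 1.14, -3.15, -1.07 and -1.15 at 14 days, so the 14-day arrays lay between the females and the males of 7 days. Its log2 fold change was -1.98 (SE 2.21, adjusted p = 0.761) and turned to 3.29 without the males at 7 days (adjusted p = 1). S100a9 moved likewise, from -0.97 to 3.80. Ly6g, whose product marks mature neutrophils, did not share the pattern, with 0.46, 2.21, 2.68 and 2.73 at 7 days and 2.36 to 2.96 at 14 days.

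The promoter windows of Lcn2 and Mmp8, also chosen after the values were seen, are shown for the same reason as above. Lcn2 lies at chr2:32387690-32387989 on the minus strand and Mmp8 at chr9:7558179-7558478 on the plus strand. Capitals mark TTGCNNAA, letters bound by C/EBP factors, regulators of myeloid and acute-phase genes, which were searched on both strands. No window printed held both motifs.
Lcn2: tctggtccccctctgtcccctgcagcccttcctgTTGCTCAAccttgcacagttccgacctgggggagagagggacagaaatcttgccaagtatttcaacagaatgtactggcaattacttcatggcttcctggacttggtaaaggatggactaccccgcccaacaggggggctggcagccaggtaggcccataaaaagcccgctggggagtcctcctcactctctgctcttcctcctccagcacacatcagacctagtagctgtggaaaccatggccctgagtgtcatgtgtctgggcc
Mmp8: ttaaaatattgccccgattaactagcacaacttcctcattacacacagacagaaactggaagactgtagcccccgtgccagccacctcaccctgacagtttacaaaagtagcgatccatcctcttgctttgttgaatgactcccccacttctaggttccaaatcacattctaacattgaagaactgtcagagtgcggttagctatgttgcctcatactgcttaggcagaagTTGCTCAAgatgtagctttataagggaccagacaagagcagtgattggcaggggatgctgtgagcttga
The match began at position -216 in Lcn2 and at -19 in Mmp8. The motif was found in 10.8% of all windows. Counted by gene as above, an unlike measure, it was found in 8 of 26 neutrophil genes with a window (30.8%) and in 6 of 18 matrix metallopeptidases and inhibitors (33.3%). It was found in 7 of 41 of the enzyme genes, in 3 of 30 surface colonocyte genes, in 1 of 14 goblet cell genes and in 0 of 14 pan-epithelial genes. By gene, it was present in 11.7% of the up-regulated DEG with a window and in 14.3% of the down-regulated DEG.

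Cytokines are signals that neutrophils and epithelium both respond to. Of 29 genes 4 were down-regulated and 2 up-regulated (median -0.35, males -1.13, females 0.32). Csf3, the growth factor for neutrophils, was at -0.48, 1.37, -6.37 and -8.05 at 7 days. None of the 14-day arrays had it well above background (0 of 4), so that the mean at 7 days was at least 7.14-fold higher, or 2.38-fold above the bound without male 2. Il10, an anti-inflammatory cytokine, was at -2.76, -3.36, -5.60 and -4.99 at 7 days and at -5.49, -6.49, -5.65 and -7.48 at 14 days. Its log2 fold change of -2.10 (SE 0.56, unadjusted p = 0.0010, adjusted p = 0.487) was -2.93 in the males and -1.27 in the females, sizes that are uncertain because it was well above background on 2 of 4 arrays at 14 days. Il6 was at 2.10, 2.70, -5.91 and -7.48 at 7 days and at -4.28, -7.25, -5.19 and -5.50 at 14 days, and missed the DEG threshold (log2 fold change -3.41, SE 1.66, unadjusted p = 0.0506). Il1b was at 1.26, 2.37, -3.17 and -3.24 at 7 days and between -4.66 and -1.34 at 14 days (log2 fold change -1.81, SE 1.16, adjusted p = 0.585). Osm, a cytokine of the interleukin 6 family, was at 0.30, 1.35, -4.13 and -3.28 at 7 days and between -4.16 and -2.58 at 14 days. Without the males at 7 days 0 of the 29 cytokines were DEG, 19 were higher and 10 lower at 14 days, and the median was 0.27.

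Of 28 cytokine receptors and decoys 4 were down-regulated and 1 up-regulated (median -0.36, without the males at 7 days 0.09 with 0 DEG). Il1r1, the interleukin 1 receptor, was at 2.03, 3.13, 0.03 and -0.03 at 7 days and between 0.11 and 0.53 at 14 days. Il4ra, shared by the receptors for interleukins 4 and 13, was at -0.53, -0.34, -2.18 and -2.08 at 7 days and between -3.19 and -1.87 at 14 days. Il22ra1, the epithelial receptor subunit for interleukin 22, went the other way (log2 fold change 1.09, SE 0.49, adjusted p = 0.499) with the males of 7 days at -4.54 and -3.04.

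Of 29 chemokines 5 were down-regulated and 2 up-regulated (median -0.75, males -1.22, females 0.25, without the males at 7 days 0.05). Ccl8, which attracts monocytes and other leukocytes, was the down-regulated chemokine among those named whose arrays did not overlap. It was at 5.23, 4.55, 4.14 and 3.85 at 7 days and at 3.49, 1.11, 2.93 and 2.83 at 14 days, with the array labelled male 2 lowest. The log2 fold change was -1.86 (SE 0.61, adjusted p = 0.487, exact permutation p = 0.0286), with -2.59 in the males and -1.12 in the females, and was -1.41 without the males at 7 days (unadjusted p = 0.073). Ccl7 was at 2.23, 3.28, -0.57 and -0.66 at 7 days and between -1.04 and -0.48 at 14 days. Ccl4 was at 1.02, 0.30, -3.29 and -4.04 at 7 days and between -5.79 and -2.52 at 14 days. Cxcl2, a neutrophil attractant, was well above background on 2 of 4 arrays at 7 days and on 3 of 4 at 14 days, and was not a DEG (log2 fold change -1.82, SE 1.47, adjusted p = 0.666).

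Of 27 monocyte and macrophage genes 7 were down-regulated and 1 up-regulated (median -0.57, males -1.18, females 0.15, without the males at 7 days -0.05 with 0 DEG). Cd163, the haemoglobin scavenger receptor of resident macrophages, was at -0.45, -1.05, -3.63 and -3.17 at 7 days and at -4.54, -3.89, -5.45 and -4.34 at 14 days. All 4 arrays of 7 days were above all of 14 days. The log2 fold change was -2.48 (SE 0.62, unadjusted p = 4.8e-04, adjusted p = 0.487), with -3.46 in the males and -1.49 in the females, and was -1.16 without the males at 7 days (unadjusted p = 0.077). Fcgr4, an activating Fc receptor, was at 1.45, 2.21, -0.15 and -0.52 at 7 days and at -0.13, -2.43, -0.44 and -0.34 at 14 days. Cd209f, a lectin of tissue macrophages, was at -0.24, -1.38, -1.13 and -1.56 at 7 days and at -2.76, -1.32, -3.17 and -2.55 at 14 days, so that the array labelled male 2 at 14 days alone lay within the range of 7 days.

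Complement genes were lower in 24 of 29 cases, with 5 down-regulated and 0 up-regulated (median -0.41, without the males at 7 days 0.05 with 0 DEG). Masp1, a protease of the lectin pathway, was at -2.15, -1.94, -4.50 and -4.54 at 7 days and between -5.17 and -4.08 at 14 days. Of 24 genes of the antimicrobial and oxidase response 4 were up-regulated and 2 down-regulated (median 0.41, males -0.10, females 0.39, without the males at 7 days 0.18 with 0 DEG). Without male 1 of 7 days alone 0 were DEG. Pigr, the receptor that carries immunoglobulin A across the epithelium, was at -0.17, 1.44, 3.84 and 3.87 at 7 days and between 3.75 and 4.21 at 14 days. Duox2, an epithelial oxidase, differed by 1.19 on the log2 scale (SE 0.45, adjusted p = 0.487), with male 1 at 7 days lowest (-4.59). The down-regulated members were Lcn2, given above, and Defb1, well above background on 0 of 4 arrays at 14 days. The mean of Defb1 at 7 days was at least 4.95-fold higher, or 1.18-fold above the bound without male 1. Saa3 was at 7.19, 6.62, -3.09 and -3.64 at 7 days and between -3.05 and 0.01 at 14 days, and was not a DEG (log2 fold change -3.67, SE 1.92). Reg3g, an antibacterial lectin, was at 5.75 in male 2 of 7 days and between -4.97 and -0.27 on the 7 other arrays.

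**Figure D3:**
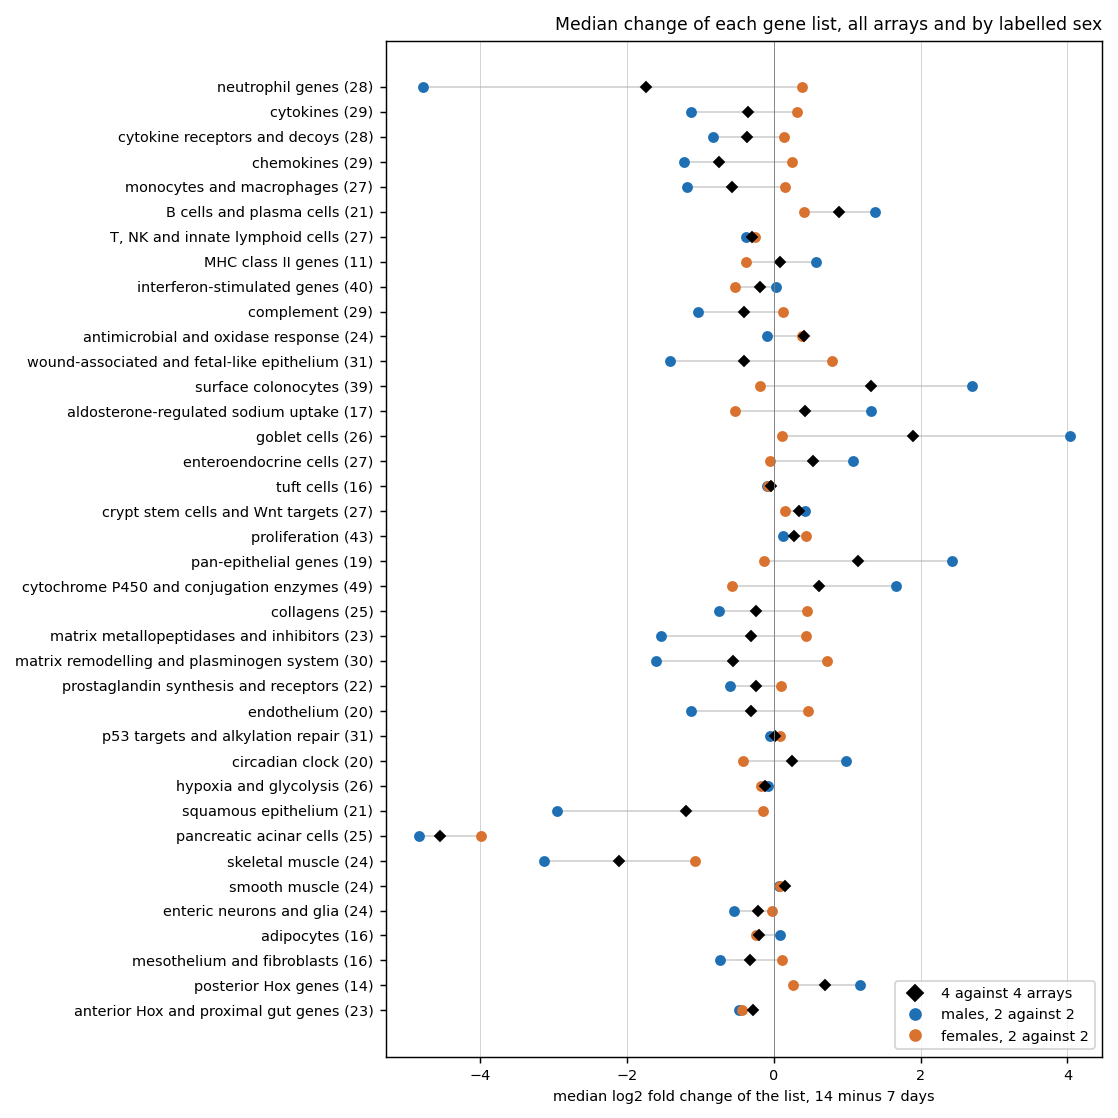
Median log2 fold change of 14 against 7 days per gene list (x axis), with the number of genes tested in brackets. Diamonds stand for all arrays (4 against 4), blue points for arrays labelled male and orange points for arrays labelled female (2 against 2). The neutrophil list lies at -4.78 in the males and 0.38 in the females, and the goblet cell list at 4.03 and 0.12.

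Lymphocyte lists held few DEG. Of 27 genes of T, NK and innate lymphoid cells 0 were DEG, 23 were lower at 14 days, and the median was -0.30 (males -0.38, females -0.26, without the males at 7 days -0.66). The median in the males was 0.44 with the array labelled male 2 of 14 days dropped. Single arrays moved it from -0.82 (without male 1 of 7 days) to -0.03 (when the array labelled male 2 of 14 days was left out). Of this list Gzma and Gzmb, the granzymes of cytotoxic cells, were chosen after their values were seen because their arrays did not overlap. Gzma was at 0.73, 1.16, 0.84 and 0.47 at 7 days and at -0.03, -2.40, -0.81 and -0.77 at 14 days (log2 fold change -1.80, adjusted p = 0.54). Of 21 B and plasma cell genes 0 were up-regulated and 1, Sdc1, was down-regulated (median 0.89, males 1.38, females 0.41). Without male 1 of 7 days the median was -0.01 and no gene of this list was a DEG, and without both males of 7 days it was 0.54. Of 11 MHC class II genes 0 were DEG (median 0.08, males 0.57, females -0.38).

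The scores of interferon-stimulated genes at 7 days were lowest in the males, and the values for this list depended on these arrays. Of 40 genes 0 were up-regulated and 2 down-regulated, and the median was -0.19 (males 0.04, females -0.53). In the males 4 of 40 passed the adjusted threshold, all of them up-regulated, a share near the 7.22% of all genes, and 1 did with the array labelled male 2 of 14 days dropped. Without the males at 7 days it was -1.04, with 39 of 40 genes lower at 14 days and 5 of 40 down-regulated, where 2.11% of all genes were. The scores were -1.15, -0.33, 0.53 and 0.58 at 7 days and -0.13, -1.46, 0.16 and -0.20 at 14 days, so the groups overlapped. The median changed sign once the array labelled male 2 of 14 days was left out (0.11) and without female 1 of 7 days (0.05), and was -0.02 on the 4 arrays scanned on the day that both groups share. Iigp1, an interferon-inducible GTPase of cell-autonomous defence, was at -0.24, 0.69, 0.87 and 1.21 at 7 days and at -0.72, -2.04, -0.74 and -1.14 at 14 days. Its arrays did not overlap, and the log2 fold change of -1.80 (SE 0.79, adjusted p = 0.493) was -1.61 in the males, -1.99 in the females and -2.21 without the males at 7 days (unadjusted p = 0.035). Gbp6, another such GTPase, was at -0.62, 0.52, 0.19 and 0.14 at 7 days and at -1.35, -3.89, -1.02 and -1.58 at 14 days.

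Of 43 proliferation genes 40 had a higher mean at 14 days and 0 were DEG, and the median log2 fold change was 0.27 (males 0.13, females 0.44), less than the SD of the list's score within groups (0.51). The scores overlapped between the days, with 0.13 in male 2 of 7 days and 0.11 in the array labelled male 2 of 14 days. Without the males at 7 days it was 0.52 with 39 of 43 higher, and on the arrays of the shared scan day 0.41. Leaving out single arrays gave no DEG in this list and medians of 0.22 to 0.40. The arrays did not overlap for 8 of the 43 genes, all higher at 14 days, where 2.29% of all genes were higher without overlap. Mki67, the gene of the Ki-67 antigen of cycling cells, was at 2.46, 2.74, 2.50 and 2.40 at 7 days and between 2.98 and 3.38 at 14 days. Its fold change was 1.57 (log2 0.65, SE 0.33, unadjusted p = 0.0606, adjusted p = 0.516, exact permutation p = 0.0286), with 0.77 in the males, 0.54 in the females and 0.73 without the males at 7 days. Top2a, a topoisomerase of dividing cells, and Ttk, a spindle checkpoint kinase, were among the 8, chosen after their values were seen, with log2 fold changes of 0.50 (SE 0.49) and 0.79 (SE 0.44). Mki67 was at 3.12 at 2 days and 2.96 at 21 days in CRC (means), so that 7 days was the lowest of the CRC group means.

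The medians of the stromal lists were below 0 in the males and above 0 in the females. Of 25 collagen genes 0 were DEG (median -0.24, males -0.75, females 0.45), and Col1a1 had a log2 fold change of -0.04 (SE 0.41). Of 23 matrix metallopeptidases and inhibitors 2, Mmp13 and Mmp8, were down-regulated and 0 up-regulated (median -0.31). Mmp13, a collagenase, was at 2.88, 5.00, -2.76 and -3.25 at 7 days and at -2.42, -3.18, -2.43 and -2.47 at 14 days (log2 fold change -3.10, SE 1.10, adjusted p = 0.487, males -6.75, females 0.55). Mmp3, Mmp10 and Timp1 were not DEG (adjusted p = 0.659, 0.545 and 0.596), although the males at 7 days were the highest arrays in each of them. Of 30 genes of matrix remodelling and the plasminogen system 2 were down-regulated and 0 up-regulated (median -0.56, males -1.61, females 0.73). In the males 12 passed the adjusted threshold, all of them down-regulated, where 4.22% of all genes did so. With the array labelled male 2 of 14 days dropped the median in the males was -1.32. Without the males at 7 days 28 of these 30 were higher at 14 days and 3 were up-regulated, where 0.967% of all genes were up-regulated. Of 20 endothelial genes 1 was up-regulated and 2 down-regulated (median -0.31), and without the males at 7 days all 20 were higher with 0 DEG. Flt1, a receptor for vascular endothelial growth factor, was at 1.55, 1.46, -1.21 and -1.35 at 7 days and at -0.90 ± 0.09 (SD, n = 4) at 14 days. Of 22 prostaglandin genes 0 were up-regulated and 2 down-regulated (median -0.25). Ptgs2, the inducible cyclooxygenase, was at 0.80, 2.47, -2.86 and -1.73 at 7 days and between -1.69 and -0.91 at 14 days. It was not a DEG over all arrays (log2 fold change -0.85, SE 0.68) and was up-regulated without the males at 7 days (1.12, unadjusted p = 0.021, adjusted p = 1).

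The remaining lists on cell state held at most 1 DEG. Wound-associated and fetal-like epithelial genes had 0 DEG of 31 (median -0.40, males -1.41, females 0.79). Of 31 p53 targets and alkylation repair genes 1 was up-regulated (Pmaip1, a pro-apoptotic protein), with a median of 0.02. Of 26 hypoxia and glycolysis genes 1 was up-regulated (Car9), with a median of -0.12. Of 20 circadian clock genes 0 were DEG (median 0.25, males 0.99, females -0.43).

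**Figure D4:**
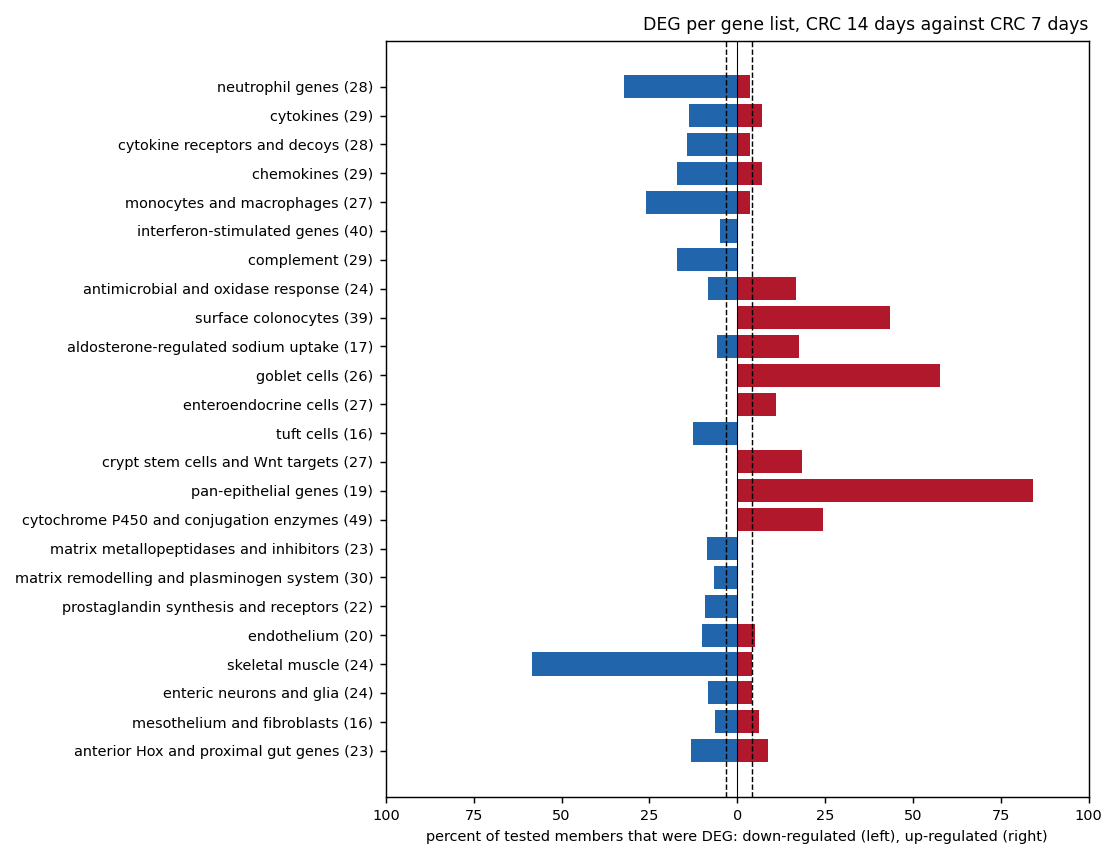
Percent of the tested members of each gene list that were DEG at 14 against 7 days, down-regulated to the left and up-regulated to the right of 0, for the lists with at least 2 DEG. The dashed lines mark the shares over all genes, 3.16% down-regulated and 4.24% up-regulated. The pan-epithelial list has the longest bar to the right (84.2%) and skeletal muscle the longest to the left (58.3%).

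Among the lists of other tissues, that of skeletal muscle held the most DEG. Of 24 skeletal muscle genes 14 were down-regulated and 1 up-regulated (median -2.11). Without the males at 7 days 10 of the 24 were down-regulated (median -0.91), where 2.11% of all genes were. The summed level of the list was 9.87, 2.59, 5.72 and 6.20 at 7 days, against 5.47 to 5.93 at 14 days. Male 1 and female 2 of 7 days thus lay above the 14-day arrays, male 2 lay below them and female 1 among them, and in score both of these lay below every 14-day array (-0.45 and -0.37). Myoz1, a protein of the muscle sarcomere, was at 4.03, -4.65, -5.46 and -1.87 at 7 days and between -5.88 and -5.58 at 14 days. Tnnc2, the calcium sensor of fast muscle, was at 7.47 in male 1, 2.15 in female 2 and -3.88 to -3.79 on the other 7-day arrays. Of 25 pancreatic acinar genes 0 were DEG (median -4.56), and without the males at 7 days all 25 were lower (median -3.56). With scan day as a block 8 of the 25 were down-regulated, where 685 of all 19845 genes were. Prss1, a trypsinogen of the pancreas that is not in this list and was a DEG, was at -5.79, 2.08, 2.51 and -5.54 at 7 days and between -7.71 and -6.54 at 14 days. Of 21 squamous genes 0 were DEG (median -1.20).

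Of 24 smooth muscle genes 0 were up-regulated and 1 down-regulated (median 0.15). Of 24 genes of enteric neurons and glia 1 was up-regulated and 2 down-regulated (median -0.21), and of 16 adipocyte genes 0 were DEG (median -0.21). Of 16 genes of mesothelium and fibroblasts 1 was up-regulated and 1 down-regulated (median -0.33). Without the males at 7 days the medians were 0.30 for smooth muscle, 0.17 for neurons and glia, 0.12 for adipocytes and 0.16 for mesothelium and fibroblasts. Posterior Hox genes, which mark the distal gut, had 0 up-regulated and 1 down-regulated of 14 (median 0.69). Their summed level was 3.13 and 3.78 in the males at 7 days and between 5.03 and 6.30 on the other 6 arrays. In score the males at 7 days (-0.23 and -0.79) lay around female 1 of that day (-0.58) and below the 14-day arrays. Anterior Hox and proximal gut genes had 2 up-regulated and 3 down-regulated of 23 (median -0.28). Hoxc9, Hoxc6, Hoxc4 and Hoxc8 were each highest in male 1 of 7 days, at -0.32, -0.69, -1.81 and -1.41. The list scores of smooth muscle and of mesothelium and fibroblasts overlapped between the days.

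The largest differences among DEG without overlap included genes outside these lists. Of the 10 most up-regulated, Cox7b2, a subunit of cytochrome c oxidase, was at -8.16, -6.16, -6.53 and -5.87 at 7 days and at -3.77, -1.47, -4.19 and -3.69 at 14 days. The arrays with it well above background numbered 1 at 7 days and 4 at 14 days, and its log2 fold change of 3.40 (SE 0.97, adjusted p = 0.487) was 4.54 in the males, 2.26 in the females and 2.92 without the males at 7 days, sizes that are uncertain because most 7-day arrays were not well above background. Pla2g2c, a secreted phospholipase, was at -5.99, -3.31, -2.40 and -2.75 at 7 days and at -1.58, -1.19, -0.40 and -1.34 at 14 days. Stra6, a retinol transporter, was at -1.91, -0.21, -0.05 and 0.70 at 7 days and at 1.85, 3.18, 1.42 and 1.74 at 14 days. Prss56 was not well above background on any array of 7 days and was on 2 of 14 days, where its mean was at least 2.83-fold higher. That mean rests on female 1 of 14 days (-0.62, the others -6.86 to -5.25), and without it the ratio to the bound was 1.10. The rest of the 10 were Ccdc172, C4bp, Ceacam10, Nat3, Zp1 and B3gnt5, with log2 fold changes of 2.11 to 2.61 and females between 0.46 and 0.89. At 7 days Nat3 was well above background on 1 of 4 arrays and Ccdc172 and Zp1 on 2 of 4, so the size of their fold changes is uncertain.

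Of the 10 most down-regulated, Neb encodes a giant muscle protein, and Fam25c and Cst6 were highest in male 1 of 7 days (5.61 and 7.34). Fam25c was well above background on 0 of 4 arrays at 14 days, and its mean at 7 days was at least 12.9-fold higher, or 1.97-fold above the bound without male 1. H19, an imprinted RNA that is high in fetal tissues, was at 2.26, -1.82, -2.87 and -1.30 at 7 days and at -3.60, -5.53, -3.34 and -3.66 at 14 days. Its log2 fold change was -3.10 (SE 0.79, unadjusted p = 6.3e-04, adjusted p = 0.487) and -1.95 without the males at 7 days. Reg3d was at 6.13 in male 2 of 7 days and between -4.75 and -1.55 on all other arrays of the 8. Six2, Sec14l4 and Prss1, also of this set, had log2 fold changes of -4.23, -3.61 and -5.18. Six2 and Prss1 were each well above background on 1 of 4 arrays at 14 days, so the size of these fold changes is uncertain.

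In the CRC + E171 mice the same days were compared. There 0 genes passed the adjusted threshold, 699 (3.52%) reached an unadjusted p under 0.05 and 526 were DEG (2.65%), 241 up-regulated and 285 down-regulated. In CRC 1469 were DEG with all arrays and 611 without the males at 7 days. The difference of the change between CRC and CRC + E171 passed the adjusted threshold for 0 genes in limma (lowest adjusted p = 0.523), while 1793 genes reached an unadjusted p under 0.05 (9.04%) and 1618 met the rule of a DEG (8.15%, with 4.12% higher in CRC), so no gene was shown to change differently. Without the males of CRC at 7 days 1042 genes met this rule and 0 passed the adjusted threshold. The array labelled male 2 of CRC + E171 at 14 days also stood apart, with a neutrophil score of 2.90 and a goblet cell score of -2.68, and without it 1250 genes met the rule and 1 passed the adjusted threshold. Clca1 was at a mean of 6.83 and 5.25 in CRC + E171 at 7 and 14 days, against 2.74 and 6.63 in CRC (interaction 5.47, SE 1.89, adjusted p = 0.551). Both of the lower means hold arrays that lay apart, since male 2 of CRC + E171 at 14 days was at 1.32 and the other 3 arrays between 6.26 and 7.08, and in CRC at 7 days only the males were low. The interaction of Clca1 was 1.38 (SE 1.12) without these males and 4.16 without male 2 of CRC + E171. Lcn2 was at -2.97 and -2.40 in CRC + E171 and at 0.56 and -3.43 in CRC, with an interaction of -4.57 (SE 1.95) that was -0.16 without the males of CRC at 7 days. Cd163 was at -3.97 and -3.21 in CRC + E171 and at -2.08 and -4.55 in CRC (interaction -3.24, SE 0.88, adjusted p = 0.551, and -1.91 without the males of CRC at 7 days). Iigp1 was at 0.51 and -0.58 in CRC + E171 and at 0.63 and -1.16 in CRC.

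Levels of the CRC mice at 2 and 21 days are given side by side with no test. Aqp8 was at 6.07 (5.88 to 6.35, n = 4) at 2 days and at 5.94 (5.13 to 6.69, n = 3) at 21 days. Clca1 was at 6.59 and 6.66, and Hnf4a at 2.21 and 2.17. These means lay near those of the females at 7 days and of the arrays at 14 days. Lcn2 was at -3.38 and -3.32, and Mmp13 at -2.26 and -2.70, and in both genes no array of these days reached the males at 7 days. Iigp1 was highest at 2 days, with a mean of 2.12 (-0.04 to 3.22), and at 0.33 at 21 days. Cd163 was at -4.19 at 2 days and -2.95 at 21 days, so that its mean at 14 days was the lowest of the 4 CRC groups.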

How the data were processed

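RNA of the distal colon was labelled with Cy3 and hybridised to 1-colour Agilent SurePrint G3 mouse arrays, 1 per mouse. The authors extracted the spots with Feature Extraction 10.7.3.1, per the file headers. The deposited intensity of each spot is background-subtracted and detrended within its array, and is not normalised between arrays. The authors also deposited log2 values normalised between arrays by a method that is not given in the sources used here, which served as an alternative.

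Each array's 75th percentile was subtracted after log2 conversion of the processed signal. Probes well above background on 60% of the arrays of at least 1 group and with a mean log2 signal of 4 or more there were kept (42787 of 56605), matched to genes by accession, symbol or synonym of RefSeq (12756 probes had no match), and averaged per gene. Of the 19845 genes 57 lacked a value on some array. The fit was limma 3.58.1 in R 4.3.3 over the 8 groups of 31 arrays, with Benjamini-Hochberg adjustment. A fit over 16 groups split by labelled sex gave the comparisons within sexes. The exact permutation test used all 70 regroupings of 8 arrays and was two-sided. Its p is quoted above for genes without overlap, where it is fixed at 0.0286. By the same exact permutation test p was 0.4 for Clca1, 0.314 for Lcn2, 0.429 for Aqp8, 0.371 for Hnf4a and 0.4 for Mmp13. The scripts were tested on simulated data. Nothing in the labels states that mice of a group were housed apart.

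The adjusted threshold (p under 0.05 with a fold change of 1.5) passed no gene, so list members were counted as DEG by the unadjusted p, the thresholds of the study's methods on a linear scale. The genes named are a fixed set, the 3 DEG with the largest change per list and the 10 largest changes in each direction among DEG without overlap (names that are only a clone or accession left out). Of these, 1 is not reported here. The comparison, gene lists and named genes were chosen with earlier results of these data known. The lists were given by counts and medians with no set test.

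Slides held no array of both groups, and slide was a random block in an alternative. The arrays were scanned on 3 days, of which 1 held 2 arrays of each group. Replicate numbers did not pair the arrays. The alternatives were other normalisations, filters, blocks and arrays left out. Leaving out the males of 7 days, the values of the shared scan day, the comparisons without the array labelled male 2 of 14 days or without single arrays of CRC + E171, and the bounds without the brightest array were chosen after seeing the data.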

Additional observations from a re-analysis of the deposited data

Results flagged for a closer look

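Of 76 sets of 4 arrays tested for their list scores and 216 for the named genes, 19 held an array farther from the others than Dixon's 95% critical value, 6.51% of the sets, where chance alone marks about 5%. Pooled over both days this share is near that of chance, but most of the marked arrays were of 14 days. With 4 arrays the test looks for a single array that lies apart. The males at 7 days often lay apart together and could mask each other, so a low count at 7 days does not show that its arrays were alike. The values are given as a description.

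At 7 days there were 5 such arrays and at 14 days 14, and at 7 days each was a male. Male 1 was outlying in Cst6 (7.34, others -3.32 to -2.82), Fam25c (5.61, others -6.01 to -4.13), Hoxc8 (-1.41, others -5.67 to -4.99) and Prox1 (-3.76, others -2.68 to -2.64). Male 2 was outlying in Reg3g (5.75, others -4.97 to -3.90). At 14 days the array labelled male 2 was outlying in the list score of monocytes and macrophages (-0.50, others 0.27 to 0.40) and in that of cytochrome P450 and conjugation enzymes (0.28, others -0.33 to -0.25). It was also outlying in Fcgr4 (-2.43), Nr3c2 (0.08), Mmp13 (-3.18), Erbb3 (0.65) and H19 (-5.53). Male 1 of 14 days was outlying in the score of surface colonocytes (-0.22, others -0.04 to -0.02), in Stfa1 (-3.92, others -8.13 to -7.63), Pax4 (-2.65) and Pmaip1 (1.56). Of the females of 14 days, female 1 was outlying in Ptgds (-4.13) and Prss1 (-7.71) and female 2 in Hoxc4 (-7.03).

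The change from 7 to 14 days differed between the arrays labelled male and female for 836 genes (limma, adjusted p), and for 43 of the genes named, given here as the log2 change in males minus that in females. The change was more negative in the males in Il6 (-9.51), Mmp3 (-8.52), Lcn2 (-8.49), Mmp10 (-8.42), Cxcl2 (-7.70), Mmp13 (-7.30), Chil3 (-6.74), Il1b (-6.01), Timp1 (-5.85), Ccl4 (-5.41), Mmp8 (-5.38), Osm (-4.72), F10 (-4.53), Ptgs2 (-4.26), Ccl7 (-3.31), Fcgr4 (-3.06), Flt1 (-2.79), Il1r1 (-2.69), Alox5ap (-2.67), Masp1 (-2.54), Il4ra (-2.20), Emcn (-1.64) and Sdc1 (-1.45). It was more positive in the males in Aqp8 (10.37), Cyp2c68 (8.50), Slc26a3 (8.47), Sult1d1 (8.28), Clca1 (7.92), Cyp2c55 (7.52), Fcgbp (6.93), Car1 (6.66), Hsd11b2 (6.22), Hnf4a (4.98), Cftr (4.20), Nr3c2 (4.10), Vil1 (4.10), C4bp (3.84), Pigr (3.57), Zp1 (3.55), Atp1b1 (2.71), Rnf43 (2.57), Erbb3 (2.22) and Krt19 (2.11). With the 14-day array labelled male 2 dropped, 41 genes in all had such a difference, among them Lcn2, Mmp13, Ccl4 and Flt1 of the 43 named (4 of 43, adjusted p), while all 43 had the same sign.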

How the results depend on the processing

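With 4 arrays a group, spots near background on single arrays and 2 arrays that stood apart limit what can be detected. The adjusted count was 0 under every alternative except array weights (47) and leaving out single arrays (0 to 4, with 1 without the array labelled male 2 of 14 days). The DEG count was 632 when only the 8 arrays were fitted, 862 at a fold change of 2, 611 without both males of 7 days, 617 without these and the array labelled male 2 of 14 days, and 400 to 3019 without single arrays (2697 without female 2 of 7 days). It was 1111 to 1591 otherwise, single arrays aside. Replicate numbers did not pair the arrays (correlations of same-numbered arrays -0.231 to 0.00314), and the fit with the replicate block gave 1582 DEG and 0 adjusted genes. Up-regulated genes made up 57.3% of the DEG, 39.5% with array weights, 684 of 1369 with scan day as a block, 31.4% without both males of 7 days and 36.4% without male 2 of 7 days. The difference between the sexes fell from 836 to 41 genes, and the genes called in the males from 2271 to 545, without the array labelled male 2 of 14 days. Of 108 named genes 90 were DEG. Leaving out both males of 7 days reversed 44 of the 108 (28 DEG and 16 that were not DEG) and left 50 DEG below the threshold. Reversed log2 fold changes in that setting were S100a8 3.29, S100a9 3.80, Lcn2 0.42, Il1b 0.70, Il6 1.14, Cxcl2 2.32, Ly6g -0.01, Reg3b 1.11, Reg3g 1.69, Saa3 1.47, Mmp3 2.40, Mmp10 1.11, Timp1 1.14, Car4 -1.02, Aqp8 -0.97, Slc26a3 -0.53, Clca1 -0.20, Lgr5 -0.40, Ptgs2 1.12, Col1a1 0.50, Chil3 0.24, Osm 0.27, Il1r1 0.33, Ccl4 0.05, C5ar1 0.05, Hsd11b2 -0.97, Nr3c2 -0.38, Atp1b1 -0.31, Pax4 -0.21, Insm1 -0.05, Cftr -0.08, Msi1 -0.14, Hnf4a -0.14, Vil1 -0.08, Sult1d1 -0.14, Cyp2c55 -0.23, Cyp2c68 -0.56, Mmp13 0.38, F10 0.14, Flt1 0.38, Emcn 0.08, Pmaip1 -0.08, Erbb3 -0.20 and Krt19 -0.16. Array weights reversed S100a8 3.27, S100a9 3.84, Il1b 0.97, Il6 1.15, Cxcl2 2.34, Reg3b 2.73, Reg3g 2.27, Saa3 1.41, Mmp3 2.30, Mmp10 1.08, Timp1 0.89, Car4 -0.61, Aqp8 -0.22, Slc26a3 -0.33, Lgr5 -0.35, Ptgs2 0.81, Col1a1 0.43, Chil3 0.15, Osm 0.16, Il1r1 0.19, Ccl4 0.40, Hsd11b2 -0.39, Nr3c2 -0.23, Atp1b1 -0.14, F10 0.03, Flt1 0.14 and Erbb3 -0.06. Col1a1, at -0.04, turned to 0.12 with scan day as a block, to 0.04 in the authors' values and to 0 after quantile normalisation. Without single arrays S100a9 ranged from -2.81 to 0.84, Reg3b from -3.20 to 1.34, Reg3g from -1.64 to 1.94, Ptgs2 from -1.69 to 0.08 and Col1a1 from -0.35 to 0.15 (0.11 without the array labelled male 2 of 14 days). The cause of these differences was not tested.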
